A study of Rattus norvegicus with 49 samples.

Results

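The simple epithelial keratins Krt7, Krt8, Krt18 and Krt19, the cell surface protein Epcam, the cadherins Cdh1 and Cdh16 and the claudins Cldn3 and Cldn4 were followed in rat thyroid tissue. These 9 genes were chosen by name, and a probe belonged to a gene when its RefSeq accession was paired with that symbol. All 9 had 1 matched probe each, among 15154 genes with a matched probe. The series held 49 one-colour arrays in 13 groups, with 1 thyroid sample on each array, from male Sprague Dawley rats that were untreated or had received a single intravenous dose of 131I. Iodine-131 is a radioactive iodine isotope that the thyroid takes up and that emits beta particles.

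Young rats were injected at 5 weeks of age and adult rats at 17 weeks. Young rats received 0.5, 5, 50 or 500 kBq and were examined after 9 months, or received 50 kBq and were examined after 3 or 6 months. Adult rats received 50 kBq and were examined after 3, 6 or 9 months. Untreated controls were 4, 7, 10 and 13 months old, and each exposed group was set against the controls of its own age. The controls of 10 months therefore served 5 comparisons with exposed rats and those of 7 months served 2. The same controls also served the comparisons of older untreated rats with those of 4 months. Comparisons that share controls are not independent. Each group had 4 arrays, except 3 in the young rats given 5 kBq and in the controls of 7 and of 13 months. The labels describe the thyroid samples of a group as coming from separate animals.

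Simple epithelial keratins form the intermediate filaments of single-layered epithelia. They assemble as pairs of an acidic type I chain (Krt18, Krt19) and a basic type II chain (Krt7, Krt8). The follicles of the thyroid are such an epithelium, and a follicle holds its colloid because its cells are joined by adherens junctions, built around the cadherin Cdh1 (E-cadherin), and sealed by tight junctions, which contain claudins. Cdh16 is a cadherin known from kidney and thyroid epithelium, and Epcam is an adhesion protein of many simple epithelia. In bulk tissue, fewer cells of a type and less RNA per cell cannot be told apart.

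For 4 of the 9 genes, Krt8, Krt18, Epcam and Cldn3, a start site was listed among the promoters of RefSeq on the build GRCr8. The 120 bases before it are shown because these 4 genes varied together across the arrays, as described further on. The array design itself used another build. Capitals mark the GC box (GGGCGG or CCGCCC), the E2-box (CACCTG or CAGGTG) and the TATA box (TATAAA), the last in the shown direction only.
Krt8 at chr7:135010340-135010459, minus strand: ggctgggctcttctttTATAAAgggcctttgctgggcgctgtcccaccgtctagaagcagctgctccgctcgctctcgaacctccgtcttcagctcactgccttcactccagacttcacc
Krt18 at chr7:135036048-135036167, plus strand: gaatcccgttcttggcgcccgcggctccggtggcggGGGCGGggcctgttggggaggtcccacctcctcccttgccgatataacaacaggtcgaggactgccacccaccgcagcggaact
Epcam at chr6:12649679-12649798, minus strand: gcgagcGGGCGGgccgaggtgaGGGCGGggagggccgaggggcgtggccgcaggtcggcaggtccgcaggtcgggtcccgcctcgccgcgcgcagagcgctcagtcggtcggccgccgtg
Cldn3 at chr12:27346548-27346667, minus strand: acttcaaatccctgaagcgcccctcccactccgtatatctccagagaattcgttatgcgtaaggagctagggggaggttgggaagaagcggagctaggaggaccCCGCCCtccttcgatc

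Over the full 250 bases before the start, a GC box stood in 3 of these 4 promoters (Krt18, Epcam and Cldn3) and in 30.5% of the 33469 promoters listed. An E2-box stood in 3 of the 4 (Krt8, Epcam and Cldn3) and in 15.9% of all, in each case farther from the start than the stretch shown. TATAAA stood in Krt8 alone, against 8.06% of all. G and C made up 60% of these bases in Krt8, 62% in Krt18, 75.6% in Epcam and 59.2% in Cldn3. The median over all promoters was 51.2%, so that the shares of motifs are not matched for base composition. These matches are a description of the letters.

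Values are log2 signals after subtraction of the 75th percentile of the same array, and since each probe binds with its own strength they are compared between arrays and not between genes. Leaving aside 3 arrays named next, an array had 70.1% to 82.5% of its spots well above background, and the 9 members passed this mark on each of the other 46 arrays.

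Of 12 thyrocyte marker genes, the mean log2 level lay between -0.31 and 2.11 on these 46 arrays. It was -5.42 on array 2 of the controls of 7 months and -4.60 on array 3 of the young rats 3 months after 50 kBq. On these 2 arrays thyroglobulin (Tg) stood at -0.69 and 0.14, against 6.41 to 7.91 on the 46. The 8 skeletal muscle markers averaged 7.44 and 7.69 there, above the 46 arrays (-3.23 to 6.80). These libraries thus carried little thyrocyte RNA, against their label as thyroid. A further array, number 2 of the young rats 3 months after 50 kBq, was dim, with 43.1% of spots well above background. Each result that rests on these 3 arrays is given with and without them.

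The closest arrays of 1 group were numbers 1 and 2 of the controls of 13 months and numbers 1 and 2 of the adult rats 6 months after 50 kBq. The SD of their log2 difference over probes was 0.28 and 0.30, above the SD between repeated spots of a probe (0.15 and 0.14) and below the next closest pair (0.47). They were kept as separate samples, and the main limma results that rest on these groups are also given with each pair counted as 1. The correlations and the exact permutation tests were not repeated in that way.

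On the 2 arrays with little thyrocyte RNA, the junction genes, Krt8 and Krt18 lay below all their values in the other 46 arrays. In the order control array of 7 months and exposed array, Cldn3 was -5.07 and -3.04, against 2.27 to 4.92 on the 46. Epcam was -4.50 and -4.22, against 0.81 to 3.26. Cdh1 was -7.16, not well above background, and -4.48, against -0.03 to 2.23. In none of these genes did the 2 arrays reach the lowest of the 46. Cldn4 was -7.22, not well above background, and -4.33, against -0.82 to 1.67. Cdh16 was -3.59 and -7.03, the latter not well above background, against -0.13 to 3.17. Krt8 was -6.16 and -5.21, against -2.03 to 0.79, and Krt18 was -2.85 and -1.25, against 1.95 to 4.90. Krt7 and Krt19 stood less far from the other arrays. Krt19 was -5.88 on the control array and -3.36 on the exposed one, and the latter lay inside the range of the 46 arrays (-3.97 to 0.17). Krt7 was -5.92 and -6.07, the latter not well above background, just below the lowest of the 46 arrays (-5.60).

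**Figure D1:**
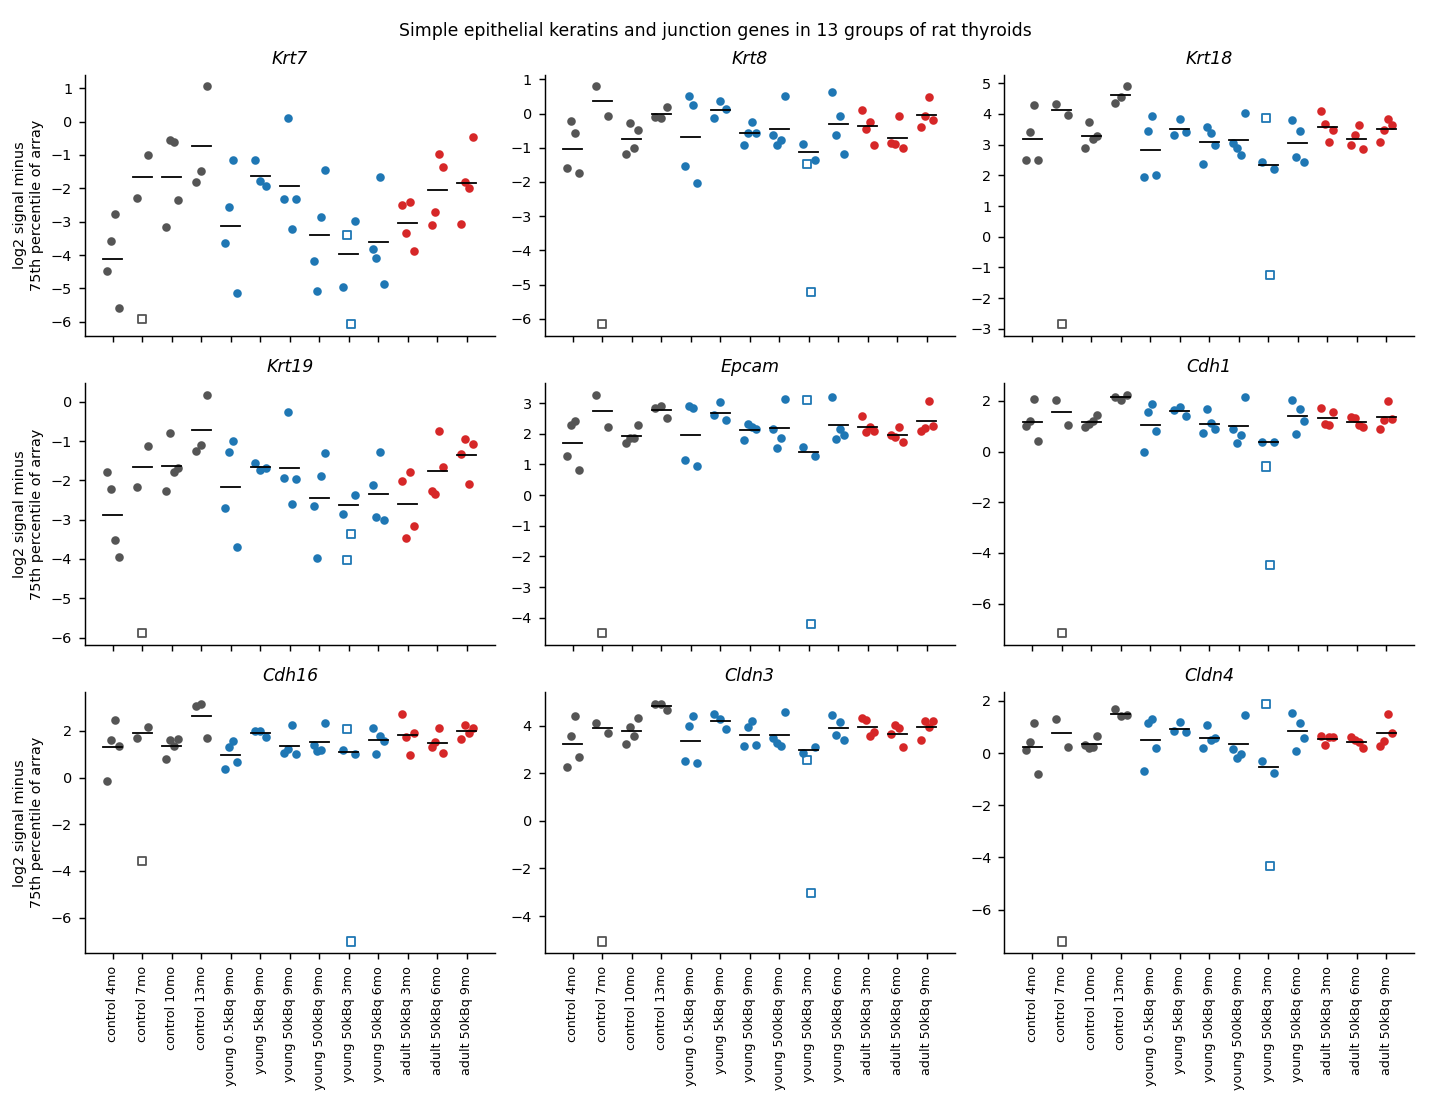
Log2 signal of each gene minus the array's 75th percentile (vertical axis) in the 13 groups (horizontal axis); each point is 1 array, open squares are the 3 arrays that stand apart, and the line is the mean of the other arrays. Grey marks untreated controls, blue rats injected young and red rats injected as adults; Cldn3 falls to -5.07 on 1 control array of 7 months, and Krt7 is spread over the widest range within groups.

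Among the 46 other arrays the members fell into a pair and a block. The 7 genes Krt8, Krt18, Epcam, Cdh1, Cdh16, Cldn3 and Cldn4 correlated with each other at a Pearson r of 0.60 to 0.95, with a median of 0.80 over 21 gene pairs. Krt7 and Krt19 correlated with each other at r = 0.86, and each of them with the 7 others at 0.27 to 0.63. After the mean of each group was subtracted, r was 0.80 for Krt7 with Krt19, 0.47 to 0.96 among the 7 and 0.06 to 0.61 between the sets. These are descriptions over 46 arrays that share their scaling and tissue makeup, and no test was made.

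**Figure D2:**
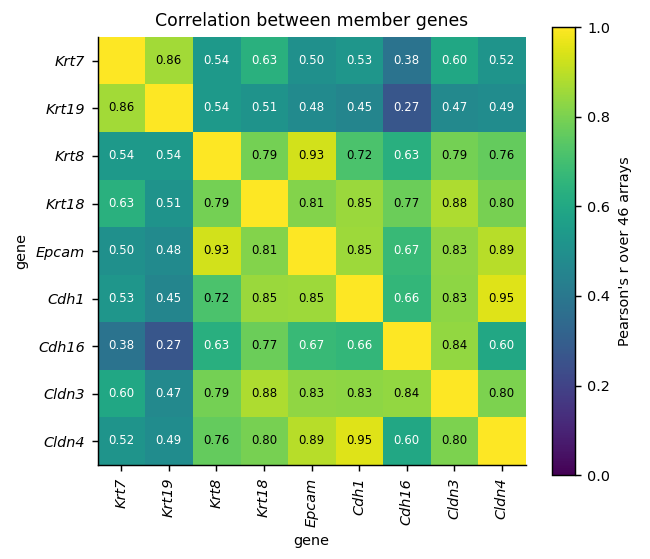
Pearson's r between the 9 genes over the 46 arrays, as colour from 0 to 1 and as printed values; both axes list the genes. Krt7 and Krt19 form a pair (0.86), and the other 7 form a block (0.60 to 0.95).

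The same division appeared against the markers of cell types. Over the 46 arrays the 9 genes were each compared with the mean level of 5 marker lists, 45 relations in all, and two-sided permutation p-values from 100000 permutations were adjusted over them by Benjamini-Hochberg. The C cell list was added after the values were seen. Genes and markers share the arrays, their scaling and the makeup of the tissue. The permutations exchanged all 46 arrays freely, without regard to group, and kept the close pairs as separate samples. The p-values may therefore be too small. Cldn3 was closest to the 12 thyrocyte markers (r = 0.93, rho = 0.89), and r was 0.90 without the 2 arrays farthest from the median marker level. Krt8, Krt18, Epcam, Cdh1, Cdh16 and Cldn4 had r from 0.78 to 0.88 and rho from 0.80 to 0.88. For these 7 genes the adjusted permutation p was 3.7e-05 for r, and no relation could reach a lower value. Krt7 had r = 0.53 and rho = 0.49 (adjusted permutation p = 0.000292 for r and 0.00144 for rho), and Krt19 had r = 0.43 and rho = 0.42 (adjusted permutation p = 0.00427 and 0.00568). Within each of the 3 scan dates, with 23, 13 and 10 arrays, r was positive for all 9 genes, from 0.43 to 0.97.

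Krt7 and Krt19 lay closer to the markers of C cells, the calcitonin-producing cells between the follicles. Against the 6 C cell markers (among them Calca, the calcitonin gene, and the granins Chga and Chgb), Krt7 had r = 0.92 and rho = 0.94, and r was 0.93 without the 2 farthest arrays. Krt19 had r = 0.76 and rho = 0.79, and 0.82 without the 2 farthest. Both had an adjusted permutation p of 3.7e-05 for r. The relation held within the scan dates, with r of 0.89, 0.93 and 0.99 for Krt7 and 0.66, 0.79 and 0.95 for Krt19. After the group means were subtracted, r was 0.86 for Krt7 and 0.66 for Krt19. The 7 other genes had r from 0.39 (Cdh16, rho = 0.32) to 0.58 (Krt18, rho = 0.55), with adjusted permutation p up to 0.00888. The difference between the correlations was not tested. Markers of parathyroid and airway cells were not among the lists compared, so that the likeness cannot be called particular to C cells.

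**Figure D3:**
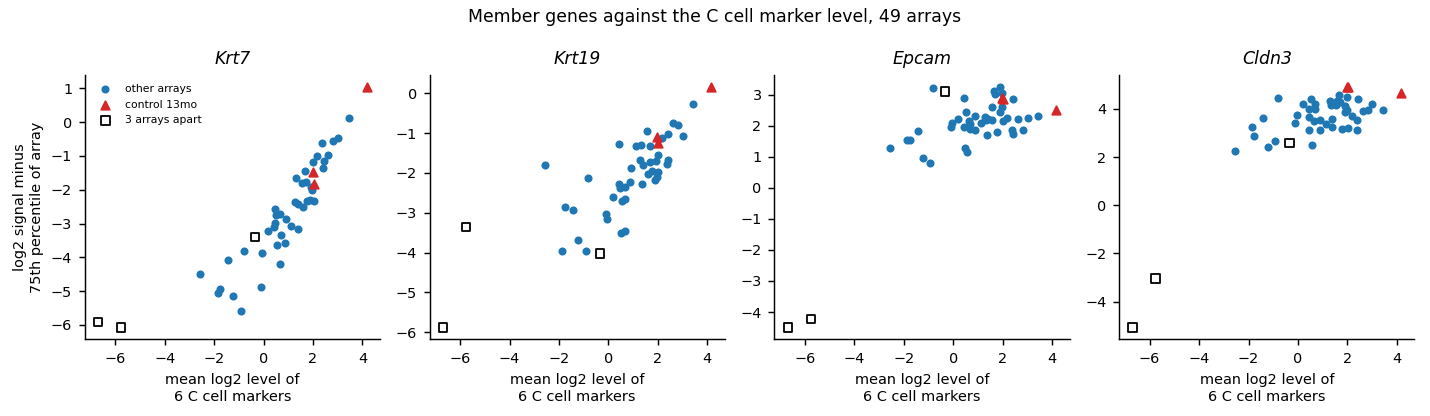
Log2 signal of Krt7, Krt19, Epcam and Cldn3 relative to the 75th percentile (vertical axes) against the mean log2 level of 6 C cell markers (horizontal axes), 1 point for each of 49 arrays, with symbols for the controls of 13 months (triangles) and the 3 arrays that stand apart (open squares). Krt7 lies along a line (r = 0.92 over 46 arrays), and Epcam and Cldn3 scatter more (0.48 and 0.54).

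Against the 8 skeletal muscle markers r was negative for all 9 genes, from -0.60 (Cldn4, rho = -0.78, adjusted permutation p = 3.7e-05) to -0.22 (Krt19, rho = -0.36, adjusted permutation p = 0.156). Without the 2 farthest arrays these relations ran from -0.68 to -0.35. Against the 5 fibroblast markers r ran from -0.65 (Krt7, rho = -0.67) to -0.25 (Cdh16, rho = -0.20), with an adjusted permutation p up to 0.110. Against the 9 squamous epithelium markers, genes of layered epithelia, r ran from -0.51 (Krt8) to 0.08 (Cdh1).

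**Figure D4:**
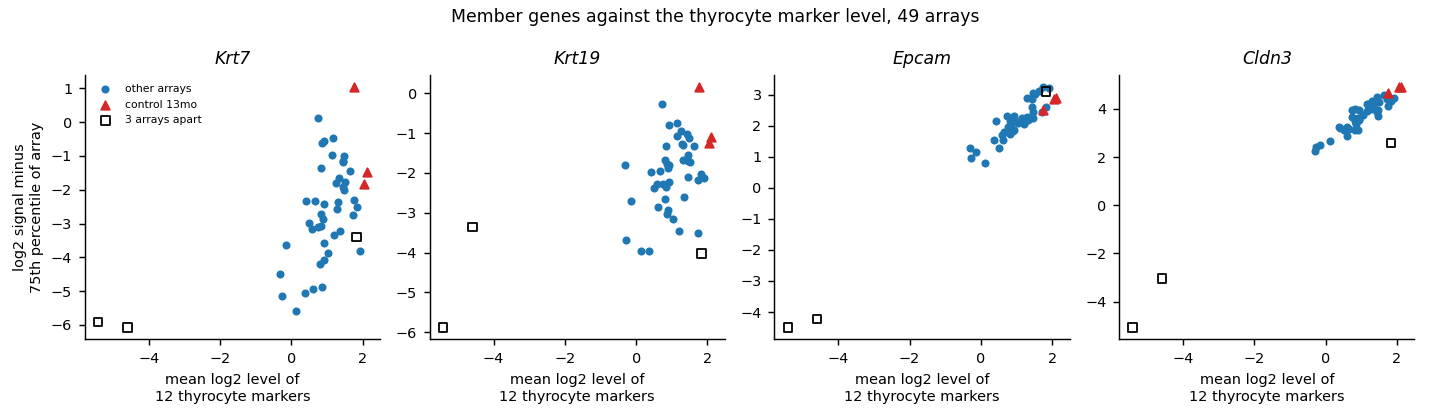
Log2 signal of Krt7, Krt19, Epcam and Cldn3 relative to the 75th percentile (vertical axes) against the mean log2 level of 12 thyrocyte markers (horizontal axes), 1 point for each of 49 arrays. Triangles are controls of 13 months and open squares the 3 arrays that stand apart; Cldn3 and Epcam lie along a line, while Krt7 and Krt19 scatter widely at a given marker level.

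By the rule of the highest Pearson r over all 49 arrays, among 11504 genes well above background on at least 25 arrays, the nearest genes to each member were found. For Krt7 they were Cabp7 (r = 0.97, and 0.97 over the 46 arrays) and Kcnk16 (0.97 and 0.97). For Krt19 they were Dync1i1 (0.88 and 0.84) and Serpini1 (0.88 and 0.85). The genes nearest to the other 7 members had r of at least 0.96 over the 49 arrays, which include the 2 with little thyrocyte RNA. They were Cldn7 and Plpp2 for Krt8 (0.97 and 0.97), Rsph9 and Spint2 for Krt18 (0.97 and 0.97), Rab19 and Ildr1 for Epcam (0.99 and 0.98) and Shtn1 and Liph for Cdh1 (0.98 and 0.98). For Cdh16 they were Slc16a11 and Pax8 (0.96 and 0.96), Pax8 being a transcription factor of thyrocytes. For Cldn3 they were Klhl14 and Kcnk1 (0.99 and 0.99), and for Cldn4 Cdca7l and Bspry (0.97 and 0.97). Over the 46 arrays the r of these 14 genes was 0.81 to 0.95. Ranked over the 46 arrays, each of these 7 members had 2 other nearest genes, with r of 0.90 to 0.96. They were Cd82 and Abcg3 for Krt8, Gls2 and Gpr108 for Krt18, Ap1m2 and Tmc4 for Epcam, and Krtcap3 and Kdf1 for Cdh1. For Cdh16 they were Ddah2 and B4galnt1, where Pax8 had 0.81. Cldn3 had Slc16a11 and Cyb561, and Cldn4 had Kdf1 and Cmtm8. For Krt7 they were Slc25a53 and Kcnk16, and for Krt19 Dgkb and Foxa2.

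In the test across all probes (limma, 1 fit of 49 arrays, 25305 probes), a call needed an adjusted p (Benjamini-Hochberg) under 0.01 and a change of more than 1.5-fold. None of the 9 members was called in any of the 12 comparisons, in the slope on activity, in the 2 tests of a difference between young and adult rats, or in the test for any difference among the 13 groups. In young rats after 9 months, the share of all probes called was 0% for 0.5 kBq and for 500 kBq, and 0.0119% for 5 kBq and for 50 kBq. The share was 0.0119% at 3 months and 0% at 6 months after 50 kBq in young rats, and 0%, 0% and 0.557% at 3, 6 and 9 months in adult rats. It was 0.00395%, 0.0119% and 5.15% for untreated rats of 7, 10 and 13 months against 4 months. It was 0% for the slope and for both differences between young and adult rats, and 0.296% for any difference among the groups. With these shares, an absence of calls among 9 genes is close to the background in each comparison. At an unadjusted p under 0.05 with all arrays, 3 members passed in young rats 6 months after 50 kBq (1659 probes) and 3 in adult rats 3 months after it (1198 probes). These became 1 (2655 probes) and 0 (2061 probes) without the 3 arrays. At 13 against 4 months 2 members (8606 probes) became 9 (12219 probes). Without the 3 arrays, 3 passed at 7 against 4 months (3416 probes), 2 at 10 against 4 months (1758 probes) and 2 in adult rats 9 months after 50 kBq (8772 probes), in place of 1, 1 and 0. In young rats 3 months after 50 kBq 1 member (9597 probes) became 0 (2556 probes). No member passed in the other comparisons with either set of arrays. In the difference between young and adult rats 3 months after 50 kBq, 7 members and 7500 probes passed at that level with both arrays of little thyrocyte RNA in the fit, and 0 members and 1716 probes without the 3 arrays. In the test for any difference, 1 member and 7264 probes passed it with all arrays, and 2 members and 9135 probes without the 3.

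Among the comparisons whose values do not rest on the 3 arrays that stand apart, that of the oldest with the youngest untreated rats had the largest median change. Untreated rats of 13 months had higher levels than those of 4 months for all 9 genes, by a median log2 difference of 1.31 (all probes 0.19). Krt7 stood at -1.82, -1.48 and 1.05 in the controls of 13 months. In the controls of 4 months it stood at -4.49, -3.59, -2.76 and -5.60. The groups did not overlap, and the fitted difference was 3.36 log2 units, or 10.3-fold (SE 1.03, limma adjusted p = 0.0222). Krt19 stood at -1.25, -1.10 and 0.17 at 13 months. At 4 months it stood at -1.80, -2.22, -3.51 and -3.96. These groups did not overlap either, and the difference was 2.15, or 4.43-fold (SE 0.76, limma adjusted p = 0.0438). Both passed an adjusted p of 0.05 and missed the 0.01 used for a call. Counting each close pair as 1 sample gave 3.81 (limma adjusted p = 0.0516) for Krt7 and 2.37 (limma adjusted p = 0.0885) for Krt19, and the number of all probes called fell from 1302 to 4.

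The 2 other keratins were higher by less. Krt18 was 4.37, 4.57 and 4.90 at 13 months, all above the 2.50, 3.40, 4.29 and 2.51 at 4 months, a difference of 1.44 (SE 0.94, limma adjusted p = 0.283). Krt8 differed by 1.01 (SE 0.90, limma adjusted p = 0.447). Among the junction genes, Cldn3 was 4.92, 4.89 and 4.66 at 13 months and 2.27, 3.55, 4.39 and 2.67 at 4 months, a difference of 1.61 (SE 1.18, limma adjusted p = 0.345). Cldn4 differed by 1.29 and Epcam by 1.06, also without overlap between the groups. Cdh16 differed by 1.31 and Cdh1 by 0.96, and for both genes at least 1 array of 4 months lay above the lowest of 13 months. In all, 7 of the 9 genes did not overlap, each with an exact permutation p of 0.0571 (two-sided), the smallest that 3 arrays against 4 allow. Of all probes, 21.5% likewise stood higher at 13 months without overlap, and the members vary together, so that the 7 are not independent counts. The differences were positive in 9 of 9 genes within the first scan date (median 1.47, 2 arrays against 2) and within the second (1.25, 1 against 2).

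Without the 3 arrays that stand apart, none of which belongs to either group, the same differences were measured against a smaller common spread. Then 4 of the 9 members were called, Cldn3 (limma adjusted p = 0.00396), Krt7 (0.00552), Krt18 (0.00765) and Krt19 (0.00828), where 22% of 25178 probes were called. With that background a few calls among 9 genes do not set the members apart, and 0 of 9 were called when the close pairs were also counted as 1 sample each (Krt7 adjusted p = 0.0109). Cldn4 (0.0123), Cdh16 (0.0184), Epcam (0.0389), Cdh1 (0.0475) and Krt8 (0.0784) missed the threshold.

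Markers of other cell types moved with this comparison. The 6 C cell markers averaged 2.02, 1.99 and 4.17 in the controls of 13 months and -2.56, 0.88, 0.52 and -0.92 in those of 4 months. The array with the highest C cell level, number 3 of 13 months, was also the one with the highest Krt7 and Krt19 of the 46, and without it Krt7 differed by 2.46 (limma adjusted p = 0.133). The 12 thyrocyte markers averaged 1.75 to 2.11 at 13 months and -0.31 to 1.72 at 4 months. The 8 skeletal muscle markers averaged 1.89, 1.91 and 3.55 at 13 months and 5.04 to 6.55 at 4 months, and the 5 fibroblast markers 0.83 to 1.90 and 2.80 to 3.17. The 9 squamous markers averaged -4.47 to -4.00 at 13 months and -4.53 to 2.12 at 4 months.

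Each of 3 marker levels was also entered as a covariate in the fit of 46 arrays. With the C cell level, Krt7 differed by 0.33 (SE 0.58, limma adjusted p = 0.754) and Krt19 by 0.59 (limma adjusted p = 0.529), and the 7 other genes by 0.25 to 0.95. With the thyrocyte level, Krt7 differed by 1.75 (limma adjusted p = 0.291) and Krt19 by 1.41 (limma adjusted p = 0.234), and the others by -0.42 to 0.19. With the muscle level, the differences were 3.12 (limma adjusted p = 0.0375) for Krt7 and 2.23 (limma adjusted p = 0.0288) for Krt19. These covariates are measured on the same arrays and differ between the ages themselves, so that age and cell makeup cannot be told apart here.

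At 10 months against 4 months, Krt7 and Krt19 were again the members with the largest difference. Krt7 stood at -3.17, -0.56, -0.61 and -2.35 in the controls of 10 months, overlapping with the 4-month arrays at 1 value of each group, and differed by 2.44 (SE 0.96, exact permutation p = 0.0571). Krt19 differed by 1.24 (SE 0.71, exact permutation p = 0.114). The other 7 genes were at most 0.55 higher. With scan date as a block, over all arrays, all 9 were higher, by 0.70 to 2.90. That fit was not run without the 3 arrays that stand apart. Within the first scan date (3 arrays against 2), all 9 were also higher, by 0.06 to 2.02, with a median of 0.35. No member passed the limma test (adjusted p of 1.00 for each with all arrays, and at least 0.421 without the 3). The C cell markers averaged 1.38, 2.83, 2.38 and 1.28 at 10 months, above all 4 arrays of 4 months, and with their level as a covariate, over 46 arrays, Krt7 differed by 0.11 and Krt19 by 0.05. This covariate follows both genes across the arrays and differs between the ages itself, so that age and cell makeup cannot be told apart here either.

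At 7 months against 4 months, the sign of the members turned on 1 array. With all arrays, 8 of 9 genes were lower at 7 months, with a median log2 difference of -1.37. Without array 2 of the 7-month controls, all 9 were higher, with a median of 0.97. Krt7 stood at -2.30 and -1.0 on the remaining arrays, above the 4-month values, and differed by 2.46 (SE 1.07 without the 3 arrays), while Cdh1 differed by 0.37 in place of -2.53. Krt7 and Krt8 lay above all 4-month arrays there, as did 10.4% of all probes. The C cell markers of the 2 remaining arrays averaged 1.90 and 2.18, above the -2.56 to 0.88 of 4 months, and their part in this was not tested.

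**Figure D5:**
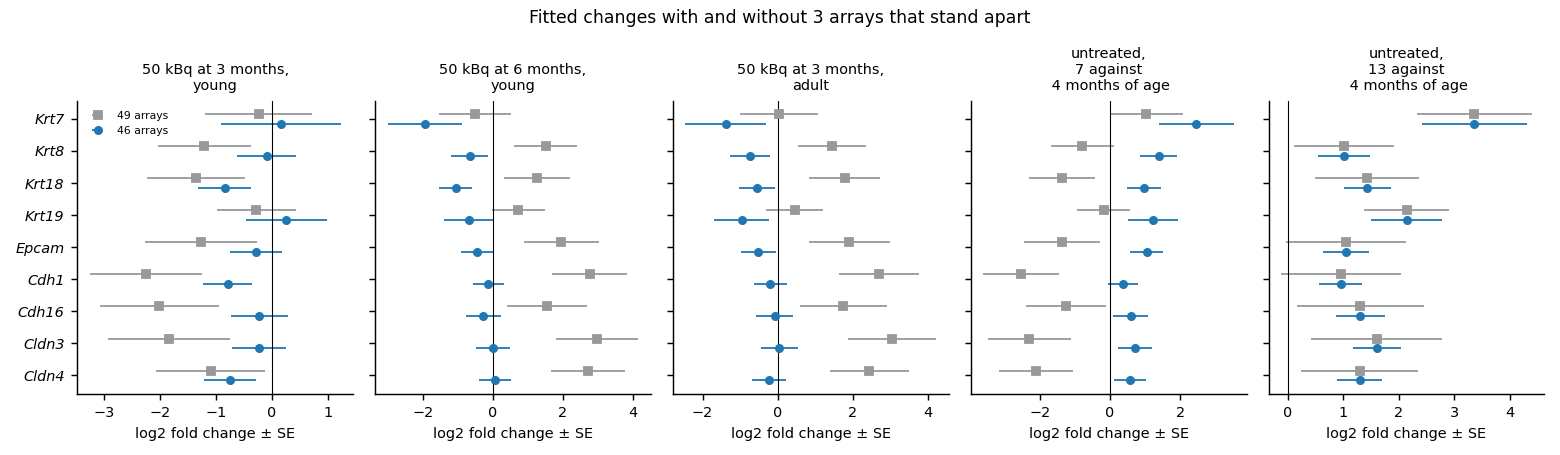
Fitted log2 fold change with its SE (horizontal axes) of the 9 genes (vertical axis) in 5 comparisons, from all 49 arrays (grey squares) and from 46 arrays (blue circles). Most points change sides in both comparisons of exposed rats with 7-month controls and in that of 7 with 4 months, and most move towards 0 in young rats 3 months after 50 kBq, while at 13 against 4 months the values stay and the SE is smaller.

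The same control array carried the largest values of exposed against untreated rats. In young rats 6 months after 50 kBq the median log2 fold change of the members was 1.55 with all arrays and -0.45 without the 3 arrays. In adult rats 3 months after 50 kBq it was 1.78 and -0.51. Cldn3, with the largest change of the 9 in both comparisons, stood at 4.44, 3.61, 4.17 and 3.41 in the exposed young rats of the first comparison. The 7-month controls had 4.13, -5.07 and 3.71, and the other 2 control values lay inside the exposed range. Its log2 fold change was 2.99 (SE 1.18) with all arrays and -0.01 (SE 0.49) without the 3 arrays. In adult rats it was 3.04 and 0.04. Without those arrays, Krt18 was lower on all 4 arrays of the exposed young rats (2.44 to 3.80) than on the 2 controls left (3.95 and 4.33), by 1.07 log2 units, and the exact permutation p was 0.133, the smallest that 4 arrays against 2 allow. Of all probes, 11.9% were lower without overlap in the same way. In the adult rats, Krt7 was lower on all 4 exposed arrays (-3.88 to -2.42) than on the 2 controls left (-2.30 and -1.0), with the same exact permutation p, as were 13.9% of all probes. The C cell markers averaged -0.05 to 1.58 on these exposed arrays and 1.90 and 2.18 on the 2 controls, also without overlap, and their part in this was not tested.

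In young rats 3 months after 50 kBq, all 9 members were lower than in controls of 4 months with all arrays, with a median of -1.27 (all probes 0.30). Cdh1 was 0.38, -0.59, -4.48 and 0.39 in the exposed rats. In the controls it was 0.99, 1.22, 2.08 and 0.43, and the groups did not overlap, as in 1.44% of all probes in this direction (log2 fold change -2.25, SE 1.00, exact permutation p = 0.0286, limma adjusted p = 0.0957). The exposed values of -0.59 and -4.48 came from the dim array and from the array with little thyrocyte RNA. Without them the fold change of Cdh1 was -0.79 (SE 0.44), the exact permutation p was 0.133, and the median of the members was -0.23. Krt18 (2.45 and 2.21) was also below all controls on the 2 exposed arrays left, by 0.85 log2 units. These 2 of 9 members stand beside 8.08% of all probes, and since the members vary together they are not independent counts.

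In young rats 9 months after injection, no member had a slope on the activity that passed the test. Their median log2 fold change against the controls of 10 months was -0.38 for the lowest activity, 0.5 kBq. It was 0.44 for 5 kBq, -0.06 for 50 kBq and -0.10 for the highest, 500 kBq. Across the exposed groups, the slope per unit of log10 activity was between -0.11 and 0.11 log2 units in each of the 9 genes. At 5 kBq, 4 genes (Krt8, Epcam, Cdh16 and Cldn4) were above all controls, as were 8.54% of all probes. These 4 vary together and are not independent counts. Epcam, for example, was 2.60, 3.03 and 2.44 at 5 kBq and 1.71, 1.87, 1.85 and 2.27 in controls (log2 fold change 0.76, 95% interval -1.42 to 2.94, exact permutation p = 0.0571, the smallest possible here). The interval rests on the spread of all 49 arrays, with the 3 that stand apart among them. Without these, the lowest limma adjusted p of a member at 5 kBq was 0.725. The thyrocyte markers averaged 1.44 to 1.51 on the 5 kBq arrays and 0.59 to 1.30 on the controls, and their part in this was not tested. With scan date as a block, over all arrays, the 9 genes lay between -0.19 and 0.62 at 5 kBq. That fit was not run without the 3 arrays that stand apart. Within the first scan date (1 array against 3) the median was 0.61, and within the third (1 against 1) it was 0.31. In each, 8 of 9 genes were higher.

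At 500 kBq, Krt7 was the member with the largest difference. It stood at -4.19, -5.07, -2.86 and -1.44, against -3.17, -0.56, -0.61 and -2.35 in controls of 10 months. The groups overlapped, and the log2 fold change of -1.72 (95% interval -3.66 to 0.22, exact permutation p = 0.143) did not pass. This interval also rests on the spread of all arrays. Without the 3 that stand apart, the lowest limma adjusted p of a member at 500 kBq was 0.942. Krt19 had -0.82 (exact permutation p = 0.257). The C cell markers averaged 0.66, -1.86, 0.90 and 1.66 on these arrays, against 1.28 to 2.83 in the controls, and the array with the lowest of these values also had the lowest Krt7 and Krt19. With their level as a covariate, over 46 arrays, the log2 fold change of Krt7 was -0.20 and of Krt19 -0.04. This list was added after the values were seen, and it followed Krt7 (r = 0.92) and Krt19 (r = 0.76) over those arrays. A covariate so close to both genes takes up their differences whatever the source. Exposure and cell makeup cannot be told apart here. Without a covariate, the 7 other genes lay between -0.16 and 0.28. With scan date as a block, over all arrays, all 9 genes were lower at 500 kBq, by a median of -0.98 (-2.31 to -0.38). None was called, and the fit was not run without the 3 arrays that stand apart. The groups shared 1 scan date, with 1 array each, where the median was -0.30 (-4.46 to 0.10) and 1 of 9 genes was higher. Krt7 also had the widest spread within the groups, with a median SD of 1.30 over the groups of the 46 arrays, against 0.78 for Krt19 and 0.31 to 0.48 for the others.

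In adult rats 9 months after 50 kBq, all 9 members were lower than in untreated rats of 13 months, with a median of -0.76 (all probes -0.14). These are the same control arrays in which all 9 were higher than at 4 months, and both results rest on them. Krt18 was 3.09, 3.48, 3.82 and 3.65 in the exposed rats, below the 4.37, 4.57 and 4.90 of the controls. The groups did not overlap, and the log2 fold change was -1.10 (SE 0.94, exact permutation p = 0.0571, limma adjusted p = 0.544 with all arrays and 0.0567 without the 3 arrays, where 8.97% of probes were called). Cldn3 (-0.89) and Cdh1 (-0.78) were also below all controls, which made 3 of 9 members against 16.4% of all probes. The members vary together, so that the 3 are not independent counts. Krt7 had -1.09, and its exposed values (-3.06, -1.81, -2.0 and -0.46) overlapped with those of the controls. The muscle markers of these controls were low, as given above, and averaged 6.12, 6.37, -3.23 and 6.41 on the exposed arrays. The 12 thyrocyte markers averaged 0.84 to 1.47 on the exposed arrays, below the 1.75 to 2.11 of the controls, and the part of either list in this was not tested. With each close pair counted as 1 sample, Krt18 had -1.17 (limma adjusted p = 0.114 without the 3 arrays), and the number of all probes called fell from 141 to 0 with all arrays and from 2259 to 624 without the 3. With scan date as a block, over all arrays, the values of the 9 genes were between -0.69 and 0.63. That fit was not run without the 3 arrays that stand apart. Within the first scan date (2 arrays against 2), the median was -0.75 (-2.15 to 0.02), and 1 of 9 genes was higher. In adult rats 6 months after 50 kBq, the 9 genes lay between -0.37 and 0.15 of the 10-month controls, and between -0.15 and 0.17 with the close pair counted as 1.

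The difference between young and adult rats in the effect of 50 kBq after 9 months was positive for all 9 genes, 0.18 to 1.00 log2 units, and none was called (limma adjusted p of at least 0.791). Without the 3 arrays, 568 of all probes were called in this test and no member, and no probe was called once the close pairs were also counted as 1. The test for any difference among the 13 groups gave adjusted p of at least 0.117 for the members with all arrays and at least 0.0407 without the 3, where 7.71% of probes were called.

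Without the 3 arrays, the group means of Krt7 were lowest in the controls of 4 months (-4.11 ± 1.22, SD, n = 4) and highest in those of 13 months (-0.75 ± 1.57, n = 3). The next below the highest was 5 kBq at 9 months (-1.62 ± 0.40, n = 3). Of the 12 steps between neighbouring group means, none was larger than the SD of the groups on either side for Krt7, Krt8, Krt19, Epcam and Cdh16. At least 1 step was larger for Cdh1, Cldn3, Cldn4 and Krt18. The controls of 13 months had the highest mean for 8 of the 9 genes, and for Krt8 the controls of 7 months did.

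Other genes of junctions and epithelia were counted in the comparison of 13 with 4 months, without the 3 arrays, where 22% of all probes were called. That number fell from 5533 to 2552 with close pairs counted as 1, and the shares of the lists below are not set apart from this background by a test. Of 17 tight junction genes tested, 5 rose and none fell, led by Marveld2 (tricellulin, log2 fold change 2.11, limma adjusted p = 0.00027), Cldn8 (1.83) and Marveld3 (1.68), with a list median of 0.96 against 0.19 for all probes. Of 11 adherens junction genes, 2 rose, Ctnnd1 (p120 catenin, 2.05) and the N-cadherin Cdh2 (1.56), and Vcl, the actin-binding vinculin, fell by 1.24. Of 5 surface proteases and their inhibitors, 3 rose, the inhibitor Spint1 (1.69) and the serine proteases Prss8 (1.55) and St14 (1.46). Of 10 epithelial regulators, Llgl2 rose (0.99) and the transcription factor Klf5 fell by 3.29. Of 4 desmosome genes, the plakophilin Pkp2 rose (0.95), and it was the only gene of these lists called with all 49 arrays, in any comparison. Of the 5 genes of mesenchymal transition, none was called. In adult rats 9 months after 50 kBq, Ctnnd1 (-1.89) and Marveld2 (-1.70) fell, against the same controls of 13 months and beside 8.97% of all probes, and no other gene of these lists was called in the other 10 comparisons.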

How the data were processed

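Total RNA of rat thyroid samples was hybridised to one-colour Agilent arrays (Cy3) with 62976 spots. The deposited scanner files hold, per the file headers, the processed signal intensity of each spot, from which Agilent Feature Extraction had subtracted background, the median spot and local background intensities, and marks of 0 or 1 for spots well above background, saturated or outlying. The labels name Partek and the study's methods Nexus Expression for the authors' own analysis. A further deposited table holds the authors' own comparisons and was not used.

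Control and outlier spots were left out, spots of a probe were averaged, and log2 intensity minus the 75th percentile of the array was used. Accessions gave a symbol to 17998 of 30367 probes. Probes well above background on at least 3 arrays were tested with limma 3.58.1 in R 4.3.3, with a mean for each of 13 groups and Benjamini-Hochberg adjustment, and called at an adjusted p under 0.01 and more than 1.5-fold (slope, differences between ages at injection and the test over all groups by p alone). Exact permutation tests of group means (two-sided) were made for single genes with SciPy 1.17.1. Precision is limited by the 2 to 4 arrays of a group. Same-numbered arrays deviated together in every pair in 1 of 12 comparisons and otherwise shared only a number (see the dependence on processing).

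The text names the members, the called genes of the fixed lists (up to 3 in each direction) and the 2 genes most correlated with each member. The members and lists were chosen with earlier results of these data known. Alternatives covered normalization, background, filters, threshold, slide, scan date, replicate block, array weights, cell marker covariates and each array left out. Normexp used the median spot signal because the files hold no mean signal. The fit was tested on simulated data for 13 against 4 months with 25190 probes: of 50 probes changed by each log2 size, 3 were called at 1, 26 at 2, 34 at 3 and 45 at 4.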

Additional observations from a re-analysis of the deposited data

Results flagged for a closer look

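In 90 sets of 4 arrays of 1 group and gene, 6 had a highest or lowest array that stood farther from the nearest other than Dixon's test allows at the 95% level, and chance flags about 5% of such sets. Array 3 of the young rats 3 months after 50 kBq, which had little thyrocyte RNA, was the lowest for Krt8 (gap to the nearest over the range, 0.86), Cdh16 (0.8821) and Cldn3 (0.9132). Array 3 of the adult rats 6 months after 50 kBq was the highest for Krt8 (0.8437), at -0.06 against -0.87 for the next. Array 3 of the adult rats 9 months after 50 kBq was the highest for Epcam (0.8554), at 3.06 against 2.24, and it was the array with the lowest skeletal muscle markers (-3.23). Array 2 of the adult rats 3 months after 50 kBq was the lowest for Cldn4 (0.8997), at 0.30 against 0.62.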

How the results depend on the processing

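No member was called in the 16 tests under the settings run, apart from 13 against 4 months and the test over all groups. At 13 against 4 months, 2 of 9 members were called at an adjusted p under 0.05, 5 with array weights, 2 without both arrays of little thyrocyte RNA and 4 without the 3 arrays. Array weights (the gene-wise method of limma, since REML did not converge) also gave 5 members in the test over all groups, where 15991 of 25305 probes were called. Leaving out each of the 49 arrays gave 0 to 0 members called. With the thyrocyte level as a covariate, 13 against 4 months reversed to -0.40 (Cdh1), -0.14 (Cdh16), -0.059 (Cldn4), -0.37 (Epcam) and -0.13 (Krt8), and, with the 3 arrays also left out, to -0.13 (Cdh1), -0.0070 (Cdh16), -0.25 (Epcam) and -0.42 (Krt8). At 7 against 4 months Cdh1 reversed to 0.37 without both or all 3 arrays, also with close pairs as 1 sample, and to 0.25 with the muscle level as a covariate and the 3 arrays left out; its range over arrays left out was -4.23 to 0.37. In young rats 6 months after 50 kBq Cldn3 reversed to -0.012 without both or all 3 arrays, also with close pairs as 1 sample, and ranged from -0.012 to 4.59 over arrays left out. The cause was not tested beyond the arrays and covariates named.

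With the replicate number as a replicate block, 0 members were called in each test, and Krt7 differed by 3.32 (limma adjusted p = 0.0262) at 13 against 4 months. Same-numbered arrays correlated above 0.1 in every pair in 1 of 12 comparisons (50 kBq at 6 months in young rats, 0.22 to 0.43), where the block gave 2.97 for Cldn3 and changed no call; in the others they share only a number. All probes called at 13 against 4 months numbered 1302, and 498 with normexp, 2007 with slide as a random block, 2379 with scan date as a block, 782 with the replicate block, 9026 with array weights, 4472 at an adjusted p under 0.05, and 0 with both groups fitted alone. The covariates, left-out arrays, close pairs and gene-by-gene weights were chosen after seeing the data.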
